A study of Mus musculus with 9 samples.

Results

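The suppressor of cytokine signalling (SOCS) family comprises Cish and Socs1 to Socs7, and its 8 genes were examined in cultured natural killer (NK) cells with and without functional Tyk2. Members were chosen by gene symbol, and where a gene had more than 1 probe set (the group of probes that reports on it) the brightest stood for it. The 8 members had 11 probe sets of their own and were 8 of the 22180 genes with a probe set of their own, of which 12579 were tested. All 8 passed the filter on dim signal, because each lay above the array median on all 9 arrays.

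NK cells were enriched with DX5 beads (an antibody to the integrin chain CD49b) from spleens of female C57BL/6N mice. The Tyk2-/- mice lacked the Janus kinase Tyk2, the Tyk2K923E mice carried a kinase-inactive form of it, and WT mice were unmodified. All 3 groups shared the culture, 7 days with recombinant human IL-2 at 5000 U/ml, and no other cytokine is named in the labels. Each of 3 independent experiments gave 1 array per genotype, from cells pooled from 3 to 4 mice, so that an array stands for a pool and not for an animal. The sources used here do not give the age of the mice or the deleted part of Tyk2.

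SOCS proteins are brakes on cytokine receptors. Cytokines activate Janus kinases, which phosphorylate STAT transcription factors, and STATs switch on Cish, Socs1, Socs2 and Socs3, whose products then dampen the same pathway. Each protein binds phosphorylated tyrosines through an SH2 domain and recruits a ubiquitin ligase built on elongins and cullin 5 through the SOCS box, and SOCS1 and SOCS3 also block Janus kinases directly. In NK cells CIS, the product of Cish, restrains the response to IL-15, a cytokine that shares receptor chains with IL-2. Socs4 to Socs7 are less tied to STAT signalling and have been studied mainly with growth factor and insulin receptors.

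No member passed the test in any comparison of genotypes. Tests came from limma with the experiment as a block, were adjusted over all 12579 genes and used a threshold of 0.05. Socs1 in Tyk2K923E against WT came nearest to it (limma adjusted p = 0.302). Socs1, Cish and Socs3 were lower in Tyk2K923E cells at an unadjusted p under 0.05, at 1.14 to 1.22-fold below WT. Without the block only Socs1 was, and the dimmer probe sets of Cish and Socs3 gave smaller differences. In Tyk2-/- cells the same 3 genes lay within 0.07 log2 units of WT. Levels are deposited RMA values (background-corrected, normalized and summarized probe signals) on a log2 scale. A difference is on that scale too, with the second genotype subtracted from the first. RNA was measured in bulk, so a smaller share of cells of a type and less RNA per cell cannot be told apart.

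**Figure D1:**
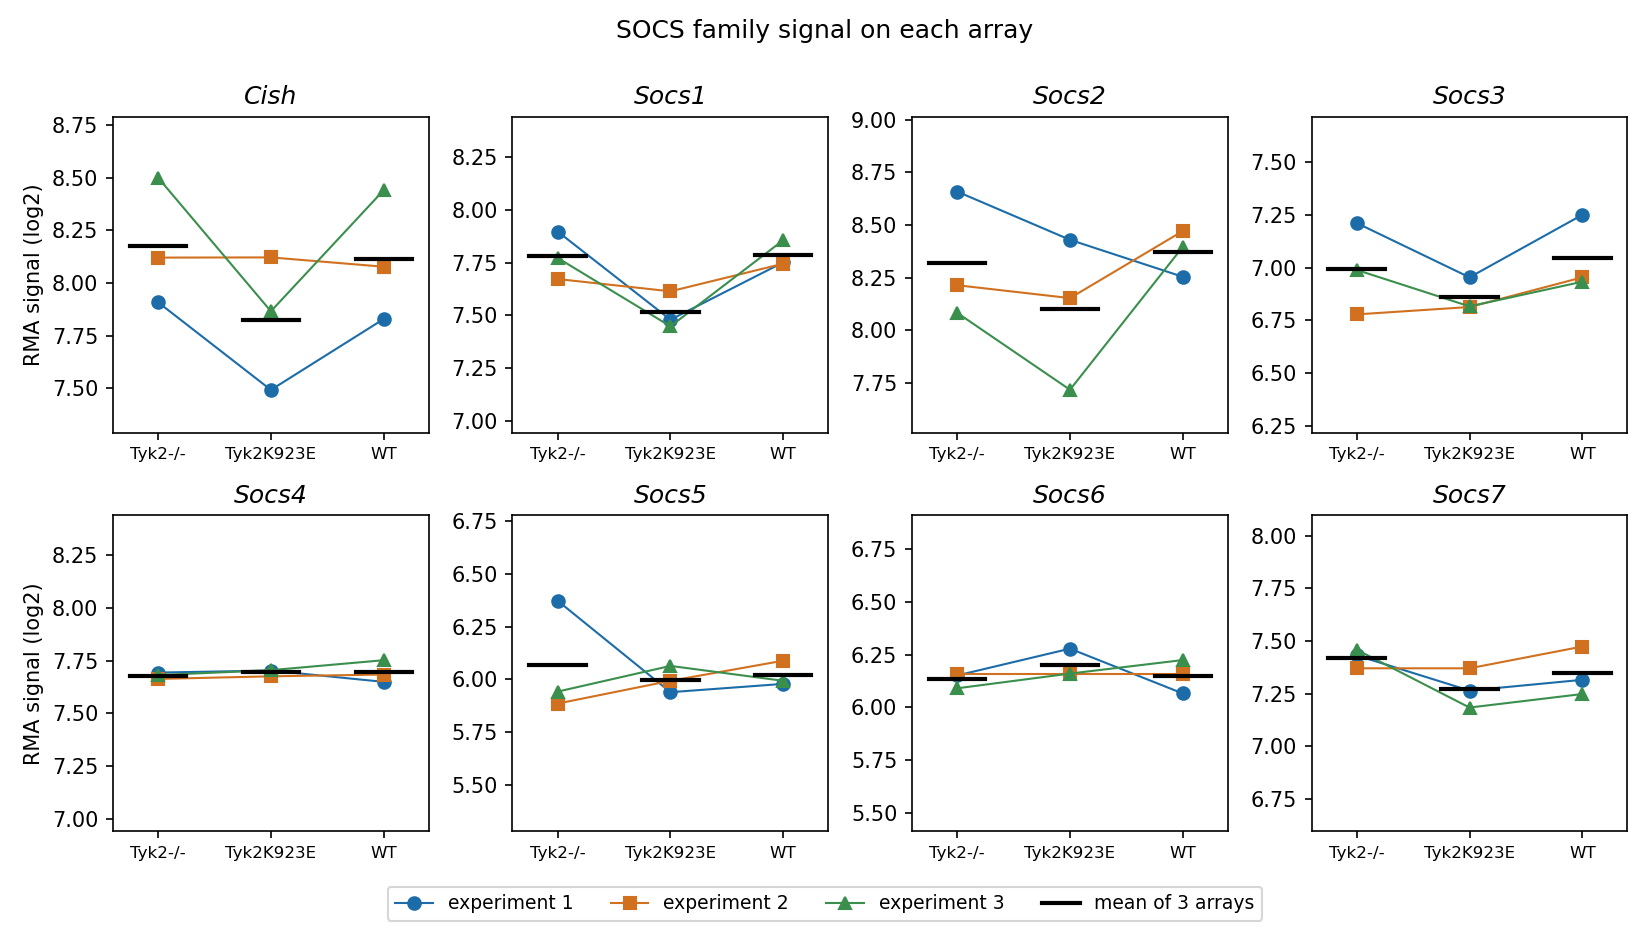
RMA signal (log2) of the 8 SOCS genes on each array, by genotype, with the arrays of 1 experiment joined by a line and the mean of 3 arrays as a black bar. Every panel spans the same number of log2 units. Socs1 is lowest in Tyk2K923E in all 3 experiments, and Socs4 lies between 7.65 and 7.75 on all arrays.

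Promoter letters are shown for the members whose RefSeq window (GRCm38.p6, 250 bases before to 50 after the annotated start) holds a motif for the factors that act on this family. A window was listed for 4 of the 8 members, Cish, Socs1, Socs3 and Socs4. The motifs searched were TTCNNNGAA, the palindromic STAT element, and, for the interferon response element, GAAA, 2 bases of any kind and GAAA again, each searched on both strands. Capitals mark the matches, and positions count from 1 at the annotated start, with negative positions before it.
Cish, chr9:107296654-107296683, plus strand, positions -5 to 25: cagttTTCCTGGAAagTTCTTGGAAatctg
Socs3, chr11:117969502-117969531, minus strand, positions -165 to -136: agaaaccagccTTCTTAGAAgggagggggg
Socs1, chr16:10785537-10785786, minus strand, positions -250 to -1: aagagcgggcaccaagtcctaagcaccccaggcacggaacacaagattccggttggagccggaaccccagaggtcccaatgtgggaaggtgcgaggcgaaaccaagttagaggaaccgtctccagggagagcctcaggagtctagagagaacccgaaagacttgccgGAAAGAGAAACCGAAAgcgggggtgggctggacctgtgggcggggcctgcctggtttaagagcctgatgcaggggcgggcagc

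Cish held 2 STAT elements, from positions 1 to 9 and 12 to 20, and Socs3 held 1, from -154 to -146. Socs1 held 2 interferon elements that overlap each other, from -83 to -74 and from -77 to -68, and no TTCNNNGAA. Of all 32851 windows of 300 bases, 8.3% held at least 1 STAT element and 0.457% held 2 or more. For the interferon element these shares were 3.44% and 0.225%. The Socs4 window held neither motif. A match describes letters and is no evidence of binding in these cells.

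Socs1 encodes the family member that restrains interferon and common gamma chain cytokine receptors most strongly. Its signal in experiments 1, 2 and 3 was 7.90, 7.67 and 7.77 in Tyk2-/-, 7.48, 7.61 and 7.45 in Tyk2K923E, and 7.75, 7.74 and 7.86 in WT. All 3 Tyk2K923E arrays lay below all other arrays, while the Tyk2-/- and WT arrays overlapped. Socs1 averaged 7.51 ± 0.09 in Tyk2K923E and 7.78 ± 0.06 in WT (SD, n = 3 each), a difference of -0.27 (SE 0.08, 95% interval -0.46 to -0.08). The difference had the same sign in 3 of 3 experiments but missed the threshold (limma adjusted p = 0.302). Against Tyk2-/-, which averaged 7.78 ± 0.11, the difference of Tyk2-/- minus Tyk2K923E was 0.27 (SE 0.08, 95% interval 0.08 to 0.46, limma adjusted p = 0.452). Tyk2-/- minus WT was -0.00 with an interval of -0.19 to 0.19. The comparisons of Tyk2K923E with WT and of Tyk2-/- with Tyk2K923E share the Tyk2K923E arrays, so their sizes are not independent.

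Cish varied most of the family, with a range of 1.01 log2 units over the 9 arrays. Its signal was 7.91, 8.12 and 8.50 in Tyk2-/-, 7.49, 8.12 and 7.87 in Tyk2K923E, and 7.83, 8.08 and 8.44 in WT, in the order of the experiments. Tyk2K923E was the lowest in experiments 1 and 3, whereas in experiment 2 the 3 genotypes lay within 0.05 of each other, and the groups overlapped. Cish differed between Tyk2K923E and WT by -0.29 (SE 0.12, 95% interval -0.56 to -0.02, limma adjusted p = 0.467) and between Tyk2-/- and Tyk2K923E by 0.35 (SE 0.12, 95% interval 0.08 to 0.62, limma adjusted p = 0.452). Tyk2-/- minus WT was 0.06, positive in 3 of 3 experiments by 0.04 to 0.08, with an interval of -0.21 to 0.33. The dimmer probe set of Cish gave smaller differences. It read 7.17, 7.42 and 7.72 in Tyk2-/-, 7.31, 7.43 and 7.36 in Tyk2K923E, and 7.40, 7.39 and 7.74 in WT. There Tyk2K923E minus WT was -0.14, Tyk2-/- minus Tyk2K923E was 0.07 and Tyk2-/- minus WT was -0.07, so the last of these changed sign with the probe set.

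Socs3 encodes the inhibitor best known for acting on receptors that contain gp130. It read 7.21, 6.78 and 6.99 in Tyk2-/-, 6.95, 6.81 and 6.82 in Tyk2K923E, and 7.25, 6.95 and 6.93 in WT. Tyk2K923E was below WT within each of the 3 experiments, but the arrays of experiment 1 were high in every genotype and the groups overlapped. The difference of Tyk2K923E minus WT was -0.18 (SE 0.07, 95% interval -0.35 to -0.02, limma adjusted p = 0.443). Tyk2-/- minus WT was -0.05 (95% interval -0.22 to 0.12), and Tyk2-/- minus Tyk2K923E was 0.13 (95% interval -0.04 to 0.30). The dimmer probe set of Socs3 lay below the array median on all 9 arrays, at 4.94 to 5.21, and gave 0.01 for Tyk2K923E minus WT.

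Socs2, a STAT5-responsive gene known for restraining growth hormone signalling, had no fixed order of genotypes on its brighter probe set. It read 8.66, 8.21 and 8.08 in Tyk2-/-, 8.43, 8.15 and 7.72 in Tyk2K923E, and 8.25, 8.47 and 8.40 in WT. WT was the lowest in experiment 1 and the highest in experiments 2 and 3, and Tyk2-/- exceeded Tyk2K923E in all 3. The difference of Tyk2K923E minus WT was -0.27 (SE 0.15, 95% interval -0.62 to 0.08, limma adjusted p = 0.614), made up of 0.18, -0.32 and -0.68 in experiments 1, 2 and 3. It was -0.11 without WT replicate 3, -0.14 without Tyk2K923E replicate 3, -0.07 without experiment 3 and -0.50 without WT replicate 1 or without experiment 1. Tyk2-/- minus WT was -0.06 (95% interval -0.41 to 0.30), made up of 0.40, -0.26 and -0.31. Tyk2-/- minus Tyk2K923E was 0.22 (95% interval -0.13 to 0.57). Over both mutants, 1 experiment thus ran against the other 2 on this probe set. The dimmer probe set of Socs2 lay above the array median on all 9 arrays. It read 6.09, 5.95 and 6.05 in Tyk2-/-, 5.94, 5.98 and 6.09 in Tyk2K923E, and 6.09, 6.15 and 6.15 in WT. There Tyk2K923E was below WT in each experiment, with a difference of -0.12 (limma adjusted p = 0.761 over 23521 probe sets). Tyk2-/- minus WT was -0.10, and Tyk2-/- minus Tyk2K923E was 0.02.

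The other 4 members had fitted differences from WT of -0.07 to 0.07. Socs4 ranged over 0.10 log2 units on the 9 arrays, from 7.65 to 7.75 (percentile 1.06 among the ranges of the genes tested), and its differences of -0.02 to 0.00 had 95% intervals that reached no further than -0.14 and 0.13. Socs6 lay between 6.07 and 6.28, with differences of -0.07 to 0.05 between genotypes, and Socs7 between 7.18 and 7.47. Socs7 was lower in Tyk2K923E than in WT in 3 of 3 experiments by 0.05 to 0.10 (difference -0.07, 95% interval -0.24 to 0.10), and Tyk2-/- minus Tyk2K923E was 0.15 (95% interval -0.02 to 0.32). Socs5 read 6.37 on the Tyk2-/- array of experiment 1 and 5.88 to 6.09 on the other 8. The Tyk2-/- minus WT difference of Socs5 was 0.05 (95% interval -0.23 to 0.32), made up of 0.39, -0.20 and -0.05 in experiments 1, 2 and 3. Without Tyk2-/- replicate 1 it was -0.13.

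Some members took the same value on several arrays. Socs6 read 6.16 on 4 arrays, among them all 3 arrays of experiment 2, identical to 5 decimals, and Socs7 read 7.37 on both mutant arrays of experiment 2. A repeat of this kind was common, since 41.3% of the genes tested had a value that occurred on at least 2 arrays and 8.4% one that occurred on 4 or more. Differences of exactly 0 for Socs6 and Socs7 in experiment 2 come from these repeats, and what produces them was not tested.

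**Figure D2:**
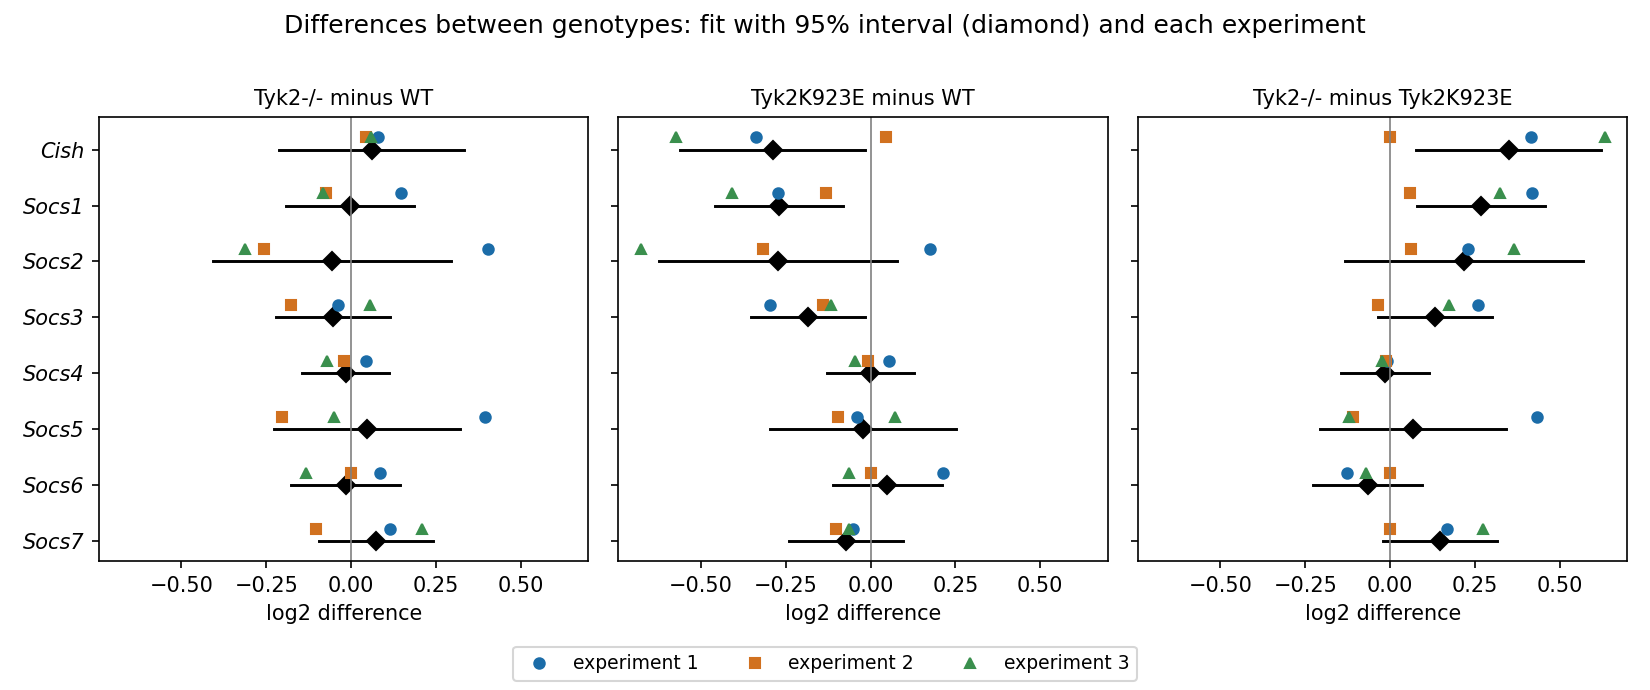
Log2 differences between genotypes for the 8 SOCS genes in 3 comparisons, with the fitted value as a diamond, its 95% interval as a line and the difference within each experiment as a coloured symbol. In Tyk2K923E minus WT the intervals of Cish, Socs1 and Socs3 lie below 0, and in Tyk2-/- minus WT all 8 intervals cross 0.

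In Tyk2-/- against WT, 0 of 8 members passed in limma, where 0.0874% of all genes tested did. At an unadjusted p under 0.05 there were again 0 of 8, where 9.08% of all genes lay. The median difference of the family was -0.01, against 0.00 over all genes, and 5 of 8 members were below 0, where 48.1% of all genes were. The smallest adjusted p among the members was 0.798. A shift of the family in the absence of Tyk2 was thus not detectable with these arrays, with intervals that reached from -0.41 to 0.30 for Socs2, the widest, and from -0.14 to 0.11 for Socs4, the narrowest.

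In Tyk2K923E against WT, 0 of 8 members passed in limma, against 0.0874% of all genes. At an unadjusted p under 0.05, 3 of 8 were lower (Socs1, Socs3 and Cish) and 0 higher, where 5.14% of all genes were lower and 4.87% higher. Without the block this was 1 of 8, Socs1, where 4.21% of all genes were below it in either direction. The median difference was -0.13 over the 8 members and 0.00 over all genes, and 7 of 8 members were below 0, where 49.1% of all genes were. Among these 7, Socs4 at -0.00 and Socs5 at -0.02 changed sign in some fits with arrays left out. Socs1, Socs3 and Socs7 were lower in all 3 experiments, as were 14.6% of all genes, and Socs1 alone had groups that did not overlap, which 3.80% of all genes did in this direction. Socs1 was also the 1 member with Tyk2K923E lowest of the genotypes in every experiment, a pattern shared by 5.10% of all genes.

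In Tyk2-/- against Tyk2K923E, 0 of 8 members passed in limma, where 0.0238% of all genes did. Cish and Socs1 were higher in Tyk2-/- at an unadjusted p under 0.05, where 4.79% of all genes were, and without the block 1 of 8 was, where 2.41% of all genes were in either direction. The median difference was 0.14 over the 8 members and 0.00 over all genes. Socs1 and Socs2 were higher in all 3 experiments, as were 14.2% of all genes, and the groups did not overlap for Socs1, as for 2.89% of all genes in this direction. This comparison uses the same Tyk2K923E arrays as the one with WT.

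Lists of cell type markers were read beside these values. No gene of the T cell, B cell, monocyte and macrophage, or basophil and mast cell lists passed in limma in any comparison. T cell markers were below 0 in 10 of 10 tested members of the list in Tyk2K923E minus WT, where 49.1% of all genes were. Their median there was -0.32. In Tyk2-/- minus WT 9 of 10 were below 0, with a median of -0.11, where 48.1% of all genes were. In Tyk2-/- minus Tyk2K923E 8 of 10 were above 0, with a median of 0.30, where 48.9% of all genes lay below 0. Their mean level per array was 7.93 to 8.18 in Tyk2K923E, 8.15 to 8.38 in Tyk2-/- and 8.17 to 8.51 in WT, and Cd3e lay between 10.5 and 11.8 over all arrays, with Cd4 at 5.32 to 5.58. Markers of basophils and mast cells were above 0 in 3 of 3 tested members in Tyk2K923E minus WT, with a median of 0.77, and in 2 of 3 in Tyk2-/- minus WT, with a median of 0.29. Among them Mcpt8 averaged 10.8 ± 0.32 in Tyk2K923E, 10.6 ± 0.44 in Tyk2-/- and 10.1 ± 0.21 in WT (SD, n = 3 each). Cpa3 averaged 7.24 ± 0.58 in Tyk2K923E, 6.31 ± 0.22 in Tyk2-/- and 6.33 ± 0.30 in WT (SD, n = 3 each). It differed from WT by 0.91 in Tyk2K923E and by -0.02 in Tyk2-/-. Fcer1a was at 2.84 to 3.12 on all arrays. Markers of B cells (1 tested member, Cd79b) differed by -0.00 in Tyk2K923E minus WT and 0.10 in Tyk2-/- minus WT, and those of monocytes and macrophages (2 tested) had medians of 0.09 and 0.06. NK markers were far above the array medians of 5.42 to 5.48, with Ncr1 at 10.8 to 11.6 and Nkg7 at 11.9 to 12.3, and had medians of -0.13 in Tyk2K923E minus WT and -0.20 in Tyk2-/- minus WT. Of these Itga2, which encodes CD49b, the antigen of the DX5 beads, fell by 0.71 in Tyk2K923E with the block (limma adjusted p = 0.0375) but did not pass without it (0.155). Medians of the T cell and the basophil and mast cell lists had the same sign in both mutants. They lay nearer to 0 in Tyk2-/- than in Tyk2K923E. Of the T cell markers, 5 of 10 were lower in Tyk2K923E than in WT at an unadjusted p under 0.05, where 5.14% of all genes were. In Tyk2-/- 0 of 10 were, where 9.08% of all genes lay in either direction. Cd8a, Lat and Cd3e differed by -0.92, -0.48 and -0.38 in Tyk2K923E minus WT. In Tyk2-/- minus WT they differed by -0.32, -0.09 and 0.01. The part of these cell types in the SOCS values was not tested.

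Levels of the members were also compared between the 3 experiments. Cish was lowest in experiment 1, at 7.74 ± 0.22, against 8.11 ± 0.03 and 8.27 ± 0.35 in experiments 2 and 3 (mean ± SD over the 3 genotypes). Socs3 ran the other way, at 7.14 ± 0.16 in experiment 1 against 6.85 ± 0.09 and 6.91 ± 0.09. Both differed between experiments (limma moderated F, adjusted p = 0.0269 for Cish and 0.0382 for Socs3), and these 2 of 8 members compare with 28.7% of all genes tested. Both calls rest on few arrays: over 15 alternatives Cish passed in 9 and Socs3 in 7, with adjusted p of 0.0058 to 0.115 for Cish and 0.0202 to 0.154 for Socs3. Cish no longer passed without the experiment 1 array of any genotype (0.0819 to 0.115), or without the experiment 3 array of Tyk2-/- (0.0836) or WT (0.0732). Socs3 no longer passed without replicate 1 of Tyk2-/- or WT, replicate 2 of Tyk2-/- or WT, or replicate 3 of any genotype (0.0576 to 0.154). With no filter on dim signal neither passed (0.0676 for Cish and 0.0971 for Socs3). Socs2 fell short, at 8.45, 8.28 and 8.07 (limma adjusted p = 0.202), and passed in 1 of 15 alternatives, without WT replicate 1 (0.0167). Socs1 showed means of 7.71, 7.68 and 7.69, which differed less than its genotypes.

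**Figure D3:**
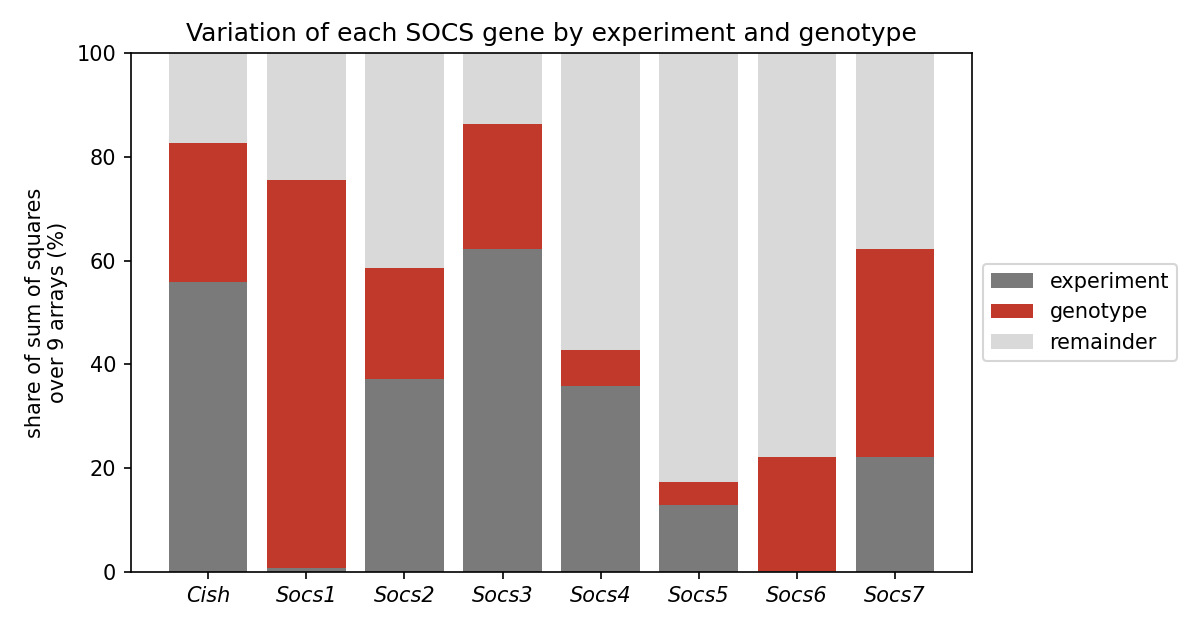
Share of the sum of squares over 9 arrays (percent) that lies between experiments, between genotypes and in the remainder, for each SOCS gene. Genotype holds 74.7% for Socs1, and experiment holds 55.8% for Cish and 62.2% for Socs3.

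Split by source, 74.7% of the variation of Socs1 lay between genotypes and 0.81% between experiments. For Cish these shares were 26.9% and 55.8%, for Socs3 24.2% and 62.2%, for Socs2 21.3% and 37.2%, and for Socs7 40.2% and 22.1%. For Socs4 the shares were 6.88% and 35.9%, and for Socs5 and Socs6 most of the variation, 82.7% and 77.8%, belonged to neither. Over all genes tested the medians were 15.5% for genotype and 47.2% for experiment. Socs1 thus had the highest genotype share of the 8 members, although its difference missed the threshold.

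Likeness was measured as Pearson's r over the 9 arrays after the mean of each experiment was subtracted, and the 3 most similar genes of 12578 were taken for each member. For Socs1 these were Scpep1, a serine carboxypeptidase (0.99), Igtp, an immunity-related GTPase (0.98), and Chpt1, a choline phosphotransferase (0.98). Igtp averaged 8.60 in Tyk2-/-, 8.17 in Tyk2K923E and 8.62 in WT, and Scpep1 (9.80) and Chpt1 (6.43) were likewise lowest in Tyk2K923E. Choosing genes by likeness to Socs1 favours that order, so it is no separate result. For Cish they were 1810055G02Rik (0.99), Tsc1, a brake on mTOR complex signalling (0.98), and Ifi30, a lysosomal thiol reductase (0.98), and for Socs3 Ablim1 (0.98), Mast3 (0.98) and Rassf5 (0.98). For Socs2 they were Ap5b1 (0.99), Map11 (0.97) and Atf6 (0.97), and for Socs4 Skp1 (0.99), 4933432G23Rik (0.97) and ND4 (0.96). Those of Socs5 were Kmt2a, a histone methyltransferase, Cenpk and Ccnh (0.99 each), those of Socs6 Fcf1, Eif4a2 and Fzd5 (0.97 each), and those of Socs7 Pced1a (0.98), Cndp1 (0.97) and Arhgef16 (0.96). With 9 arrays such values were frequent, since 30 to 131 genes exceeded 0.9 for each member, and without the subtraction r for the same 24 genes ranged from -0.01 to 0.97.

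Upstream of the family stand the receptors and kinases. In the JAK and STAT list 0 of 9 tested members passed in any of the 3 comparisons. Tyk2 itself averaged 9.01 ± 0.48 in Tyk2-/-, 8.53 ± 0.10 in Tyk2K923E and 8.62 ± 0.06 in WT (SD, n = 3 each). Signal was thus not lower on the arrays labelled Tyk2-/-, where 1 array read 9.55, and since neither the deleted part nor the position of the probes is given, it checks nothing about the genotype. Stat4, which relays IL-12 signals, averaged 10.7 ± 0.23 in Tyk2K923E and 11.1 ± 0.05 in WT (difference -0.44, limma adjusted p = 0.139). In Tyk2-/- it averaged 10.9 ± 0.06, a difference from WT of -0.22 (limma adjusted p = 0.521). Of 17 tested cytokine receptor chains 0 passed. In Tyk2K923E minus WT 13 were below 0, with a median of -0.13, where 49.1% of all genes were below 0. Il2ra, the alpha chain of the IL-2 receptor, is also in the list of IL-2 and STAT5 targets. It differed by 0.33 in Tyk2-/- minus WT (limma adjusted p = 0.377) and by 0.28 in Tyk2K923E minus WT (0.348). Il10rb, a chain of receptors that signal through Tyk2, differed by -0.24 (0.45) and -0.36 (0.159).

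Other inducible outputs of the pathway were set beside the family. Of 20 IL-2 and STAT5 target genes 0 passed in each comparison, with medians of 0.04 in Tyk2-/- minus WT, 0.03 in Tyk2K923E minus WT and 0.02 in Tyk2-/- minus Tyk2K923E. Among them Lta, which encodes lymphotoxin alpha, differed by 0.34 in Tyk2-/- minus WT and by -0.32 in Tyk2K923E minus WT, and Tyk2-/- minus Tyk2K923E was 0.66 (limma adjusted p = 0.117, same sign in 3 of 3 experiments). Pim2, a survival kinase, differed by -0.45 in Tyk2K923E minus WT (limma adjusted p = 0.133) and by -0.26 in Tyk2-/- minus WT (0.458). Type I interferon-stimulated genes had 22 of 22 tested members below 0 in both mutants against the same WT arrays. Of all genes, 48.1% were below 0 in Tyk2-/- minus WT and 49.1% in Tyk2K923E minus WT. The list had medians of -0.35 in Tyk2-/- and -0.48 in Tyk2K923E. Of the 22, 2 fell in Tyk2-/- and 4 in Tyk2K923E with the block (Ifi27 and Rtp4 in both, Mx1 and Lgals3bp in Tyk2K923E). In each of these comparisons 0.0874% of all genes passed. Without the block 1 gene of the list fell in each. Ifi27 fell by 1.35 in Tyk2-/- (limma adjusted p = 9.14e-04) and fell by 1.80 in Tyk2K923E (2.78e-04). In Tyk2-/-, where that list had its median at -0.35, Socs1 differed by -0.00, with an interval of -0.19 to 0.19. Genes of the list ranged there from -1.35 (Ifi27) to -0.01 (Rsad2), so some of them also lay close to WT. Whether Socs1 differed from the list was not tested.

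**Figure D4:**
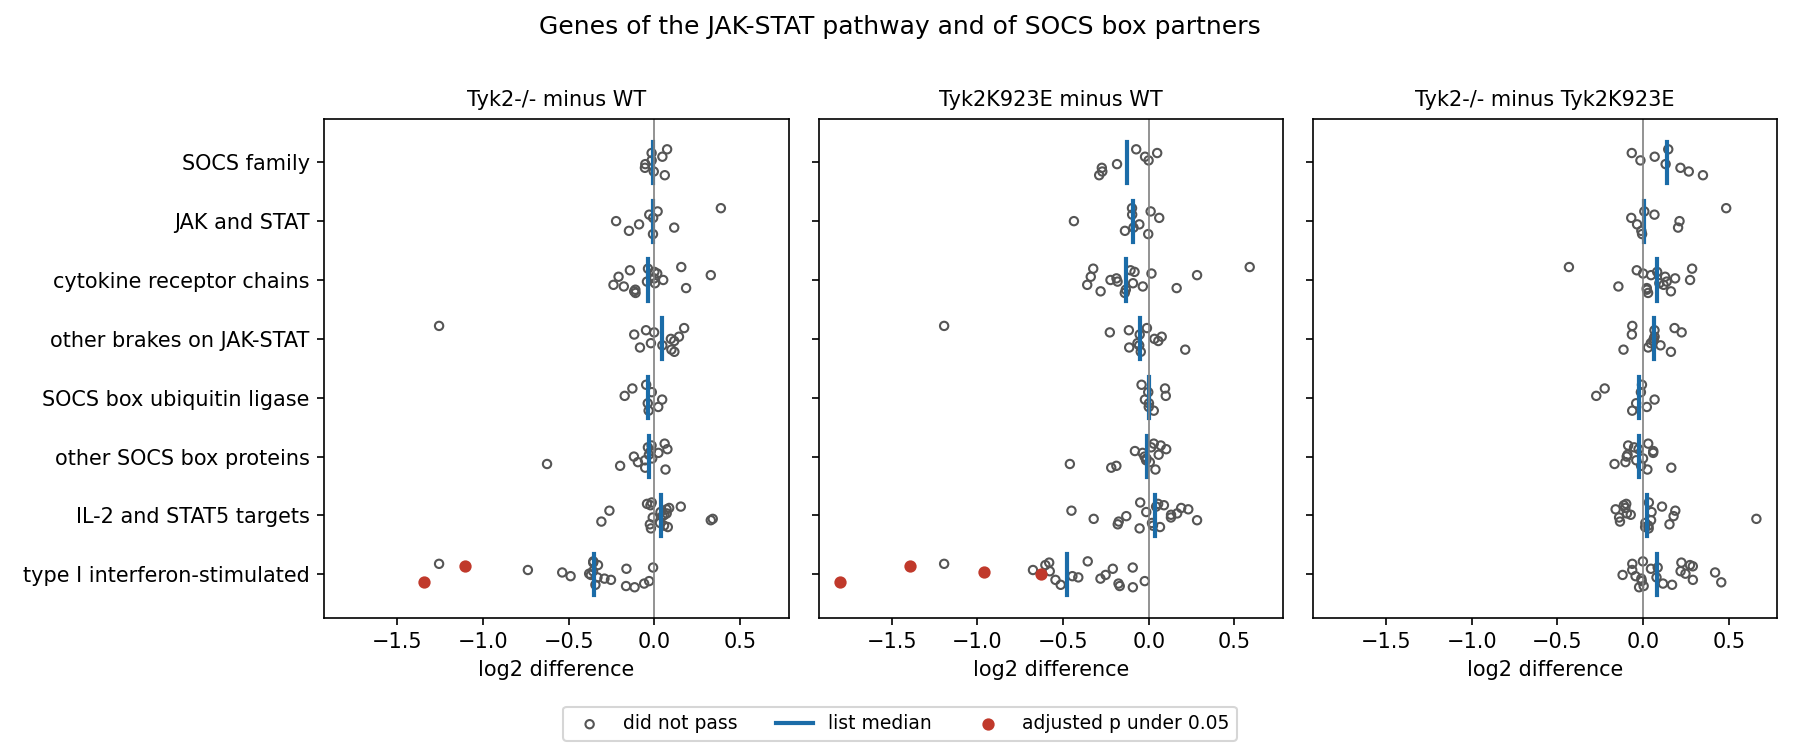
Log2 differences of tested genes in 8 lists, in 3 comparisons. Each circle is a gene, filled red where its adjusted p was under 0.05, and the blue bar is the list median. The SOCS family median is -0.13 in Tyk2K923E minus WT and -0.01 in Tyk2-/- minus WT, and the only filled circles are interferon-stimulated genes.

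Brakes on the pathway outside the family formed another list, which shares Usp18 with the list of interferon-stimulated genes. Of 13 tested (phosphatases, PIAS proteins, adaptors and ligases), 0 passed, with medians of 0.05 in Tyk2-/- minus WT and -0.05 in Tyk2K923E minus WT. Usp18, the brake on the type I interferon receptor, averaged 6.03 ± 0.18 in Tyk2-/-, 6.09 ± 0.07 in Tyk2K923E and 7.28 ± 0.54 in WT (SD, n = 3 each), with differences from WT of -1.26 (limma adjusted p = 0.0915) and -1.19 (0.0734). Usp18 was lower in 3 of 3 experiments in both mutants, whereas Socs1 was lower in 3 of 3 in Tyk2K923E and in 2 of 3 in Tyk2-/-. The difference between these genes was not tested. Ptpn6, which encodes the phosphatase SHP-1, differed by -0.23 in Tyk2K923E minus WT (0.434), and Cblb, a ubiquitin ligase that restrains NK cells, by 0.21 (0.312).

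The machinery that SOCS proteins recruit was examined last. Of 8 tested genes of the SOCS box ubiquitin ligase 0 passed, with medians of -0.04, 0.00 and -0.03 in the 3 comparisons. Eloc, which encodes elongin C, averaged 9.03 ± 0.11 in Tyk2-/- and 9.31 ± 0.14 in Tyk2K923E (SD, n = 3 each), a difference of -0.27 (limma adjusted p = 0.452), and Rnf7, the RING subunit that pairs with cullin 5, differed by -0.22 (0.461). Among 15 tested genes of other SOCS box proteins 0 passed, with medians of -0.03, -0.01 and -0.03. Asb2, which targets filamins for degradation, averaged 7.77 ± 0.20 in Tyk2-/-, 7.93 ± 0.25 in Tyk2K923E and 8.39 ± 0.23 in WT (SD, n = 3 each), with differences from WT of -0.63 (limma adjusted p = 0.299) and -0.46 (0.358).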

How the data were processed

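Expression was measured on 9 Affymetrix arrays. The deposited log2 values are RMA signals that the authors made in Partek 6.6, per the submitters' processing notes. The genome build is not given in the sources used here, and promoter letters are from RefSeq (GRCm38.p6). Of 41345 probe sets 23521 carried 1 gene symbol. A probe set was kept if it reached its array's median on at least 3 of 9 arrays, and the brightest represented its gene. limma 3.58.1 (R 4.3.3) fitted genotype with the experiment as an additive block, with Benjamini-Hochberg adjustment over 12579 genes. The labels number 3 shared experiments, and deviations from genotype means correlated at 0.38 to 0.79 in 9 pairs of arrays of 1 experiment and at -0.71 to 0.56 in 18 pairs of different experiments, so the ranges overlap; between experiments 2 and 3 all 6 such pairs were positive. Separate experiments are biological replicates per the labels. Precision depends on the number of arrays: with 3 values a group, the smallest exact two-sided p is 0.1, and with 3 pairs it is 0.25. The members and lists were chosen with earlier results of these data known. The rule for named genes took the members, Tyk2, the 3 most similar genes of each member and, per list and comparison, up to 3 genes with the smallest p. Genes of these lists named outside it (Cd3e, Cd4, Fcer1a, Ncr1 and Nkg7) were chosen after their values were seen. Simulated data with known differences were used to check the fit. Figures were drawn with matplotlib 3.10.9.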

Additional observations from a re-analysis of the deposited data

How the results depend on the processing

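Between genotypes, no member passed the threshold under any of the 21 alternatives, in which 24 member differences gave 498 values and 43 of them changed sign. Cish, Socs1, Socs2, Socs3 and Socs7 kept a negative sign in Tyk2K923E minus WT under all 21, and a positive sign in Tyk2-/- minus Tyk2K923E. Beyond leaving out arrays, sign changes were Socs1 in Tyk2-/- minus WT (0.00369 with arrays centred on their medians), Socs4 in Tyk2-/- minus Tyk2K923E (0.0015 with the same centring), Socs4 in Tyk2K923E minus WT (0.00337 with quantile normalization) and Cish in Tyk2-/- minus WT (-0.00574 as the mean over probe sets). Leaving out 1 array or 1 experiment gave, for Tyk2-/- minus WT, -0.0183 to 0.15 for Cish, -0.0790 to 0.0659 for Socs1, -0.29 to 0.11 for Socs2, -0.11 to 0.0195 for Socs3, -0.0458 to 0.0117 for Socs4, -0.13 to 0.17 for Socs5 and -0.0824 to 0.0427 for Socs6. For Tyk2K923E minus WT it gave -0.0293 to 0.0247 for Socs4, -0.10 to 0.0746 for Socs5 and -0.0321 to 0.11 for Socs6, and for Tyk2-/- minus Tyk2K923E -0.0315 to 0.00071 for Socs4 and -0.11 to 0.17 for Socs5. The same left-out fits in Tyk2K923E minus WT gave -0.46 to -0.15 for Cish, -0.36 to -0.20 for Socs1, -0.50 to -0.07 for Socs2, -0.24 to -0.13 for Socs3 and -0.11 to -0.02 for Socs7. In Tyk2-/- minus Tyk2K923E they gave 0.21 to 0.53 for Cish, 0.19 to 0.37 for Socs1, 0.08 to 0.33 for Socs2, 0.07 to 0.22 for Socs3 and 0.08 to 0.23 for Socs7.

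Counts of genes called moved more. In Tyk2-/- minus WT 11 genes passed, against 4 with no replicate block, 6 with only the 2 genotypes compared, 4 with no filter, 19 with a 70th percentile filter, 22 with an intensity trend and 3 to 11 with arrays or experiments left out. In Tyk2K923E minus WT 11 passed, against 1, 2, 1, 29 and 41 under the same settings in that order, 20 with arrays centred on their medians, 17 with quantile normalization and 1 to 34 with arrays left out, the highest without Tyk2-/- replicate 2. In Tyk2-/- minus Tyk2K923E 3 passed, and 2 to 6 with arrays left out. Between experiments 3611 genes passed, and 2250 to 3277 with 1 array left out. Socs5 and Socs6 did not reach the 70th percentile filter. The pairing by replicate number changed no member's call. The cause of these moves was not tested.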
